A study of Rattus norvegicus with 13 samples.

Results

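The genes described here are splicing factors of the SR and hnRNP families, with subunits of splicing factor SF3 and U2 auxiliary factor (U2AF). They were measured in adolescent male rats in the MPOA (medial preoptic area), a hypothalamic region. The members are found by symbol: every row of the authors' deposited gene table whose symbol begins with Srsf and a digit, Hnrnp, Sf3a or Sf3b and a digit, or U2af. This rule found 42 of 14855 genes, namely 11 SR genes, 19 hnRNP genes, 9 SF3 genes and 3 U2AF genes, each with a single row. The SAS Sprague-Dawley rats were injected into the MPOA on postnatal day 21, with 0.5 uL per side. The vector, AAV5, an adeno-associated virus, carried GFP and, behind the U6 promoter, either an shRNA directed at rat Oprm1 (the mu opioid receptor gene) or a scrambled (Scr) shRNA. The comparison sets 5 samples with the Oprm1 shRNA against 7 samples with the scrambled shRNA, so virus, GFP and a hairpin are common to both groups. A further Oprm1 shRNA sample, number 6, was left out because its label calls it an outlier that the authors excluded. The MPOA was dissected from 200 micron sections as whole tissue, so that fewer cells of a type and less RNA per cell cannot be told apart.

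Pre-mRNA splicing removes introns in the nucleus. SR proteins bind exons through RNA recognition motifs and recruit the splicing machinery through a domain rich in arginine and serine, while hnRNP proteins coat the nascent transcript and often act against the use of nearby splice sites. U2AF reads the end of the intron, and SF3A and SF3B, both parts of the U2 snRNP, hold the branch point. Neurons splice many channel, receptor and synaptic transcripts in their own way, and the balance of these widely expressed proteins is known to bear on that choice.

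The authors' deposited table gives each gene a log2 fold change (Oprm1 shRNA over scrambled shRNA), its average CPM (read counts scaled to library size) on the log2 scale, and edgeR's likelihood ratio statistic (LR). It also gives the p of that test, both raw and as a false discovery rate (FDR), called the adjusted p here. Values of single samples were not analysed here, so depth per sample is unknown and no spread between samples can be shown directly. The spread enters through an implied standard error (the size of the log2 fold change over the root of the LR) and an approximate 95% interval built on it. CPM is not scaled to gene length. It is given below as the read support behind a value and not to rank the genes by level. The targeted gene, Oprm1, had 7.32 CPM and a log2 fold change of −0.58 ± 1.65 (implied SE) per the authors' deposited table, with a p of 0.725, so its level checks the group labels in neither direction. All 12 preoptic or hypothalamic markers looked for had a row, from 2.76 to 360 CPM, as had all 10 neuronal, 8 astrocyte and 8 oligodendrocyte markers. The median log2 fold change was −0.02 for neuronal, 0.27 for preoptic or hypothalamic and −0.08 for astrocyte markers per the authors' deposited table. It was −0.05 for oligodendrocyte and −0.04 for microglial markers (8 of 9 measured) there. The 12 preoptic or hypothalamic markers had a median of only 14.7 CPM and a median implied SE of 0.92. Cortical and hippocampal markers had 4 of 6 measured, from 0.785 to 28.0 CPM, with 2 higher and 2 lower. Of these 6 marker lists, Map2 among neurons (−0.15, p = 0.00635) and Slc1a2 among astrocytes (−1.47, p = 0.0275) had an unadjusted p under 0.05 by the authors' deposited edgeR fit. That is 2 of 50 measured markers, or 4%, beside 4.39% of all genes, and the part of tissue composition in the values below was not tested.

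None of the 42 splicing factor genes passed the threshold in either direction. At an adjusted p under 0.05 the authors' deposited edgeR fit called 0 of the 42, beside 0.0202% of all genes. At an unadjusted p under 0.05 it again called 0 of the 42, beside 4.39% of all 14855 genes and 3.26% of the 8538 genes with a log2 average CPM of at least 4, a level that 39 of the 42 reach. The smallest unadjusted p among the 42 was 0.0935, for Srsf9, and the adjusted p of every member was 0.9997 by the authors' deposited edgeR fit. With Oprm1 shRNA 22 members were higher and 20 lower, and their median log2 value was 0.01, against 48.4% higher and a median of −0.02 over all genes of the authors' deposited table. The interquartile range of the members ran from −0.18 to 0.11 on the log2 scale, and that of all genes from −0.38 to 0.32. Read support differed as well, with a median of 110 CPM for the members and 22.2 CPM for all genes. Within the class of log2 CPM from 6 to 8, where 24 members lie, the interquartile range ran from −0.09 to 0.12 for the members and from −0.18 to 0.15 for all 3000 genes of the authors' deposited table. In the class from 4 to 6 the members were not narrower, since the 9 members ran from −0.48 to 0.18 and all 4907 genes from −0.30 to 0.30 by the same measure. In that class 44.4% of the members, against 27.4% of all genes, lay over 0.5 from 0 on the log2 scale. In the class from 6 to 8 these shares were 4.17% and 6.57%. From 8 upwards, where 6 members lie, they were 0% and 0.317%. For all 42 members and all 14855 genes they were 14.3% and 38.5%.

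**Figure D1:**
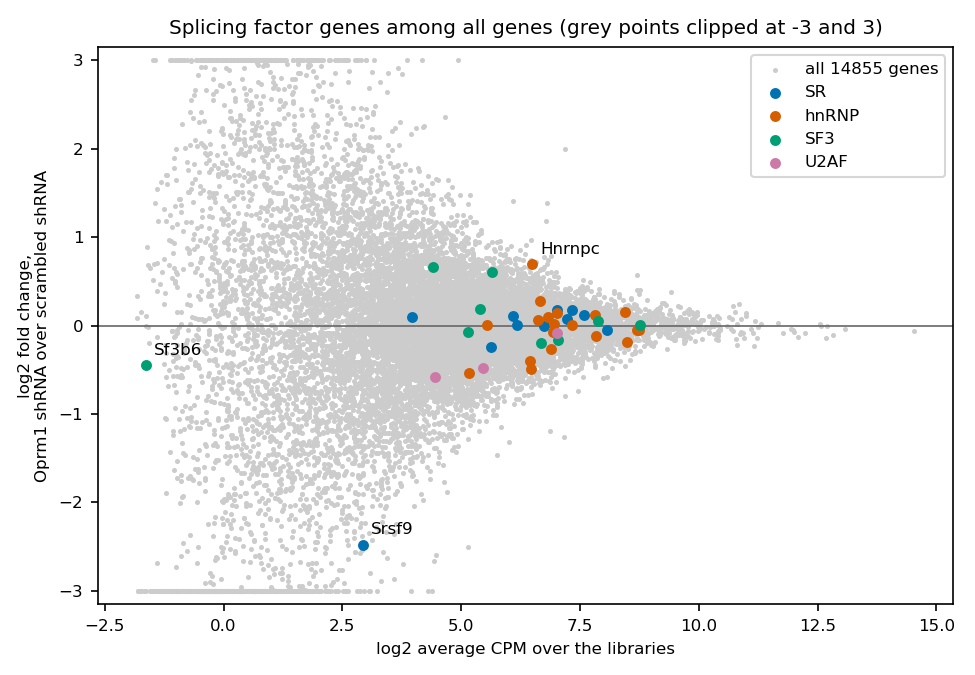
Log2 fold change (vertical axis) against log2 average CPM (horizontal axis) per the authors' deposited table, with all 14855 genes in grey and the 4 families in colour. The members lie along the middle of the cloud, and Srsf9 at −2.48 and Sf3b6 at the lowest read support stand away from the rest.

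The precision of these values differed by gene. The fold change that would reach an unadjusted p of 0.05 had a median of 1.40-fold over the 42 genes, and ran from 1.20-fold for Hnrnpk to 226-fold for Sf3b6. For 16 members the whole approximate 95% interval lies within 1.5-fold in both directions, and for 28 it lies within 2-fold. By family these were 3 and 7 of the 11 SR genes, 10 and 16 of the 19 hnRNP genes, 2 and 4 of the 9 SF3 genes, and 1 and 1 of the 3 U2AF genes. For the other 14 members a change of 2-fold or more in at least 1 direction is inside the interval. Of all 14855 genes, 1395 had the interval within 1.5-fold and 4248 within 2-fold, at the lower read support given above. From a log2 CPM of 8 upwards it lay within 1.5-fold for 6 of 6 members and 568 of 631 genes. Between 6 and 8 it did so for 10 of 24 members and 822 of 3000 genes.

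**Figure D2:**
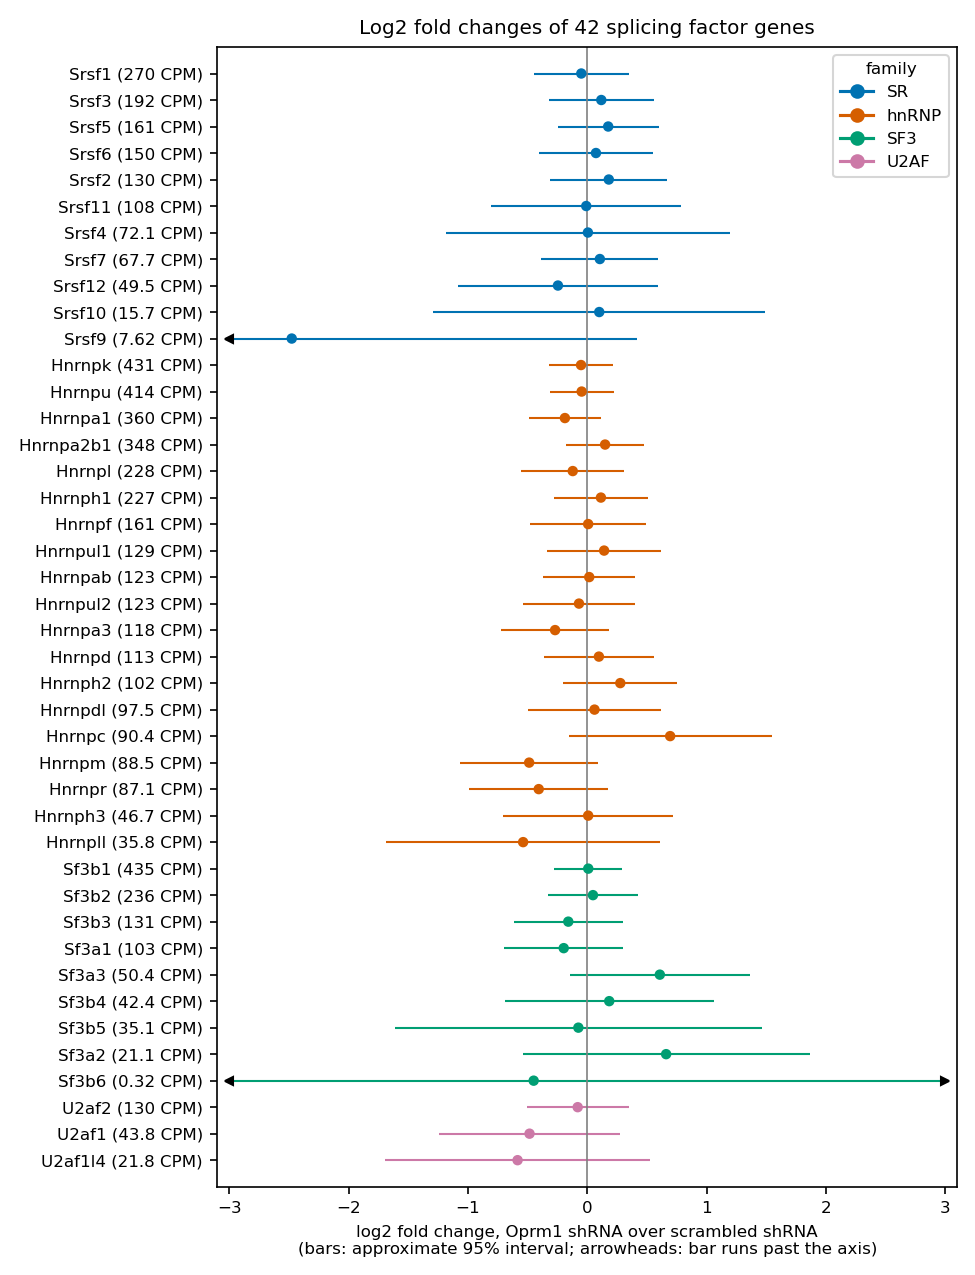
Log2 fold change of each of the 42 genes (points) with its approximate 95% interval (bars), sorted by average CPM within each family, from the authors' deposited table. All 42 intervals include 0, and they widen towards the genes with few reads.

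Among the SR genes, 7 of 11 were higher and 4 lower (median 0.07 on the log2 scale). Srsf1, the founding SR protein and a splicing activator, had 270 CPM and a fold of 0.966 (interval 0.732 to 1.27) per the authors' deposited table. Srsf3, the smallest of the SR proteins, had 192 CPM and a fold of 1.09 (0.799 to 1.47), and Srsf5 had 161 CPM and 1.13 (0.842 to 1.52) per the authors' deposited table. Srsf2, a core protein of nuclear speckles, was at 1.13-fold (0.806 to 1.59) with a p of 0.471 per the authors' deposited table. All 4 point values lie within 0.2 of 0 on the log2 scale, as do those of 9 of the 11 SR genes. On that scale Srsf4, Srsf6, Srsf7, Srsf10 and Srsf11 stood at 0.01, 0.07, 0.11, 0.10 and −0.01 per the authors' deposited table. Srsf10 differs from the classical SR proteins in that it is known to repress splicing when dephosphorylated, and its 15.7 CPM left an interval from 0.409 to 2.81-fold.

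The 2 SR genes further from 0 were both lower. Srsf9 (ENSRNOG00000001163), a small SR protein close to Srsf1, was at −2.48 ± 1.48 (implied SE) on the log2 scale, with 7.62 CPM, per the authors' deposited table, a fold of 0.180 with an interval from 0.0241 to 1.34. At this read support a change of 7.44-fold would have been needed for an unadjusted p of 0.05, and the interval is approximate for a gene with so few reads. Srsf12 was at −0.25 on the log2 scale with an interval from −1.08 to 0.59, 49.5 CPM and a p of 0.564 per the authors' deposited table.

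Of the hnRNP genes 10 were higher and 9 lower (median 0.01 on the log2 scale). The 3 with the most reads were also the best bounded. Hnrnpk, a poly(C)-binding protein with KH domains, had 431 CPM and a fold of 0.965 (interval 0.801 to 1.16) per the authors' deposited table. Hnrnpu, which also binds chromatin, had 414 CPM and 0.968 (0.804 to 1.17), and Hnrnpa1, a classical binder of exonic silencers, had 360 CPM and 0.878 (0.711 to 1.09) per the authors' deposited table. Hnrnpa2b1, known for carrying myelin transcripts in oligodendrocytes, had a fold of 1.11 (0.883 to 1.39) per the authors' deposited table. For these 4 genes a change of 1.5-fold lies outside the interval in both directions.

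Several hnRNP genes form groups of close relatives. The G-run binders Hnrnph1, Hnrnph2, Hnrnph3 and Hnrnpf stood at 0.11, 0.28, 0.01 and 0.01 on the log2 scale per the authors' deposited table, of which Hnrnph2 had the smallest p, 0.257. The AU-rich element binder Hnrnpd and its relatives Hnrnpdl and Hnrnpab were at 0.10, 0.06 and 0.02, and the U-like genes Hnrnpul1 and Hnrnpul2 at 0.14 and −0.07 per the authors' deposited table. Hnrnpl, which binds CA repeats, and its paralog Hnrnpll were at −0.12 and −0.54, and Hnrnpa3 was at −0.27 per the authors' deposited table. Differences between 2 genes were not tested, because that needs values per sample.

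The hnRNP genes with the smallest p pointed in different directions. Hnrnpm, a regulator of alternative splicing, was at −0.49 on the log2 scale with 88.5 CPM, a fold of 0.714 (0.477 to 1.07) with a p of 0.101 per the authors' deposited table. Hnrnpr, which takes part in axonal transport of actin transcripts in mouse motor neurons, was at −0.41 (fold 0.754, 0.503 to 1.13) with a p of 0.172 per the authors' deposited table. On the other side Hnrnpc, which binds uridine tracts as a tetramer, was at 0.70 (fold 1.62, 0.898 to 2.92) with a p of 0.109 per the authors' deposited table.

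The authors' deposited table has 5 further rows that it describes as hnRNP genes under LOC symbols, each outside the rule. Each was paired with a member by its description alone and is called the like row here. The row paired with Hnrnpab is described as A/B, without the word like. RSEM divides reads that fit more than 1 gene by an estimate. No sequences of the pairs were compared, and whether they share reads was not tested. The row described as C1/C2-like, LOC100911576, had 132 CPM and a log2 fold change of −0.24, against 90.4 CPM and 0.70 for Hnrnpc, so that it held 59.3% of the CPM of the pair per the authors' deposited table. The row described as R-like, LOC102551606, had 6.90 CPM and a log2 fold change of 2.28 (interval 0.720 to 32.9-fold), opposite in sign to Hnrnpr at −0.41. If the average CPM is taken as the mean over the 5 and 7 libraries, Hnrnpc and its like row together come to an estimated 235 CPM with Oprm1 shRNA and 213 CPM with scrambled shRNA, a log2 fold change of 0.15. Hnrnpr and its like row come to an estimated 86.1 CPM with Oprm1 shRNA and 99.7 CPM with scrambled shRNA, a log2 fold change of −0.21. For Hnrnpk, Hnrnpa3 and Hnrnpab the like rows held 9.15%, 1.11% and 15.6% of the CPM of the pair, and the summed log2 values were −0.06, −0.26 and −0.003. These sums were computed after the values had been seen, they rest on group averages from the authors' deposited table, and they have no test.

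**Figure D3:**
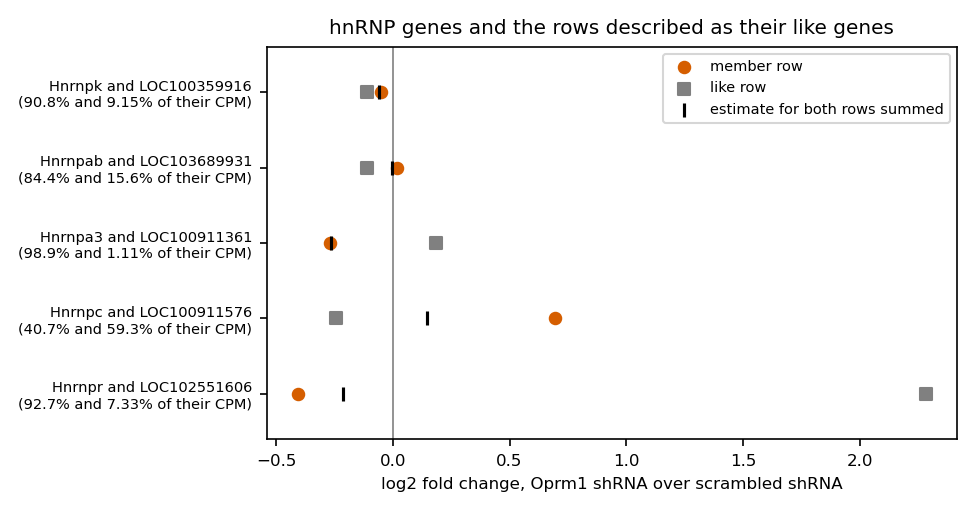
Log2 fold changes from the authors' deposited table of 5 hnRNP genes (orange circles) and of the like rows paired with them by description (grey squares), with the estimate for both rows summed (black ticks). For Hnrnpc the rows stand at 0.70 and −0.24 and the sum at 0.15, and for Hnrnpr at −0.41 and 2.28 with the sum at −0.21.

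Of the 9 SF3 genes found by symbol, 5 were higher and 4 lower (median 0.01 on the log2 scale). Sf3b1, the scaffold that clamps the branch point, had the most reads of all 42 genes, 435 CPM, and a fold of 1.01 (interval 0.825 to 1.23) per the authors' deposited table. Sf3b2 followed with 236 CPM and 1.03 (0.794 to 1.35), and Sf3b3 with 131 CPM and 0.896 (0.653 to 1.23) per the authors' deposited table. Sf3b4 and Sf3b5 stood at 0.18 and −0.07 on the log2 scale per the authors' deposited table. The 6 SF3B genes found by symbol had a median of −0.03. Phf5a, also known as an SF3B subunit, falls outside the symbol rule and is counted below with the remaining spliceosome components. Phf5a was at 1.14 on the log2 scale (fold 2.21, 0.889 to 5.47), with a p of 0.0879 by the authors' deposited edgeR fit. That value is further from 0, and its p smaller, than for any of the 9 SF3 genes. The median of the 3 SF3A genes, 0.61, is the value of Sf3a3, and the split of SF3 into SF3A and SF3B was not planned. In SF3A, Sf3a3 was at 0.61 (fold 1.52, 0.905 to 2.57) with a p of 0.113 and Sf3a2 at 0.66 (fold 1.58, 0.687 to 3.64) with a p of 0.281, while Sf3a1, with the most reads of the 3, was at −0.20 (fold 0.872, 0.617 to 1.23) per the authors' deposited table. The 3 proteins form a single complex, and the interval of each overlaps those of the other subunits. Sf3b6, the subunit that touches the branch point adenosine, had 0.320 CPM per the authors' deposited table, so its fitted log2 value of −0.45 with an implied SE of 3.99 is no bound on a change.

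All 3 U2AF genes were lower with Oprm1 shRNA. U2af2, the large subunit that binds the polypyrimidine tract, had 130 CPM and a fold of 0.946 (interval 0.703 to 1.27) per the authors' deposited table. U2af1, the small subunit that reads the AG at the intron's end, had 43.8 CPM and 0.715 (0.422 to 1.21) with a p of 0.212, and its paralog U2af1l4 had 21.8 CPM and 0.667 (0.309 to 1.44) with a p of 0.302 per the authors' deposited table. None of the 3 passed, and the median of 3 genes, −0.48, is the value of U2af1. The mean weighted by precision was −0.22.

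A few members had a wider implied SE than other genes with as many reads. The implied SE divided by its running median over genes of like CPM had a median of 1.01 over the 42 genes and exceeded 1.5 for 4 of them, against 2.09% of all genes per the authors' deposited table. These were Srsf4 at 1.97, Srsf11 at 1.65, Sf3b5 at 1.63 and Hnrnpc at 1.59. Their point values gave no common direction, at 0.01, −0.01, −0.07 and 0.70 on the log2 scale. For Srsf4, Srsf11 and Sf3b5 the LR was near 0 too (8.72e-05, 0.000416 and 0.00901). How stable the implied SE is at such values was not tested. At the other end stood Srsf7, with a ratio of 0.789 and a log2 fold change of 0.11 per the authors' deposited table.

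In the list of kinases and importers of SR proteins all point values were on the same side. SRPK kinases act on the arginine-serine domain mainly in the cytoplasm, the transportin Tnpo3 carries the phosphorylated protein into the nucleus, and CLK kinases act on it there. All 11 genes of the list were lower with Oprm1 shRNA (median −0.38 on the log2 scale), against 51.6% lower and a median of −0.02 over all genes of the authors' deposited table. At an adjusted p under 0.05, and at an unadjusted one, 0 of the 11 passed in the authors' deposited edgeR fit, beside the 0.0202% and 4.39% given above. Srpk1 was at −0.43 (fold 0.741, 0.486 to 1.13, p = 0.163 by the authors' deposited edgeR fit) and Srpk2 at −0.27 (fold 0.830, 0.583 to 1.18). Clk1, Clk2, Clk3 and Clk4 were at −0.23, −0.29, −0.24 and −0.46 per the authors' deposited table. Tnpo3 was at −0.38 and Dyrk1a, a kinase with several splicing factor substrates, at −0.43 (p = 0.171) per the authors' deposited table. Prpf4b, a kinase of the spliceosome, was at −0.23 and Topors, a ligase that is neither kinase nor importer, at −0.46 there. Srpk3, known from muscle, had 2.09 CPM and −0.80 with a very wide interval per the authors' deposited table. The 11 genes are measured in the same libraries, so they are not independent of each other, and the list, which was chosen with earlier results of these data known, has no test.

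**Figure D4:**
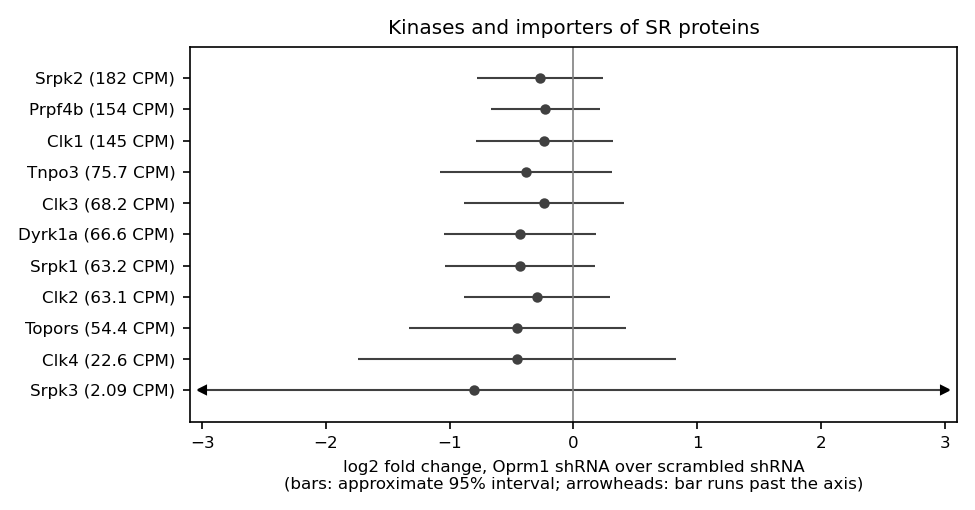
Log2 fold change (points) and approximate 95% interval (bars) of the 11 genes in the list of kinases and importers of SR proteins, sorted by average CPM, from the authors' deposited table. All 11 points lie below 0, between −0.80 and −0.23, and all 11 intervals include 0.

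The other related lists held genes on both sides. SR-related proteins had 10 of 22 measured genes higher and a median of −0.01, and 2 of the 22, both lower, were at an unadjusted p under 0.05 per the authors' deposited table, beside 4.39% of all genes. These were Srek1, which itself carries an arginine-serine domain, at −0.92 (fold 0.528, 0.329 to 0.850, p = 0.00846 by the authors' deposited edgeR fit) and Tra2b, an exonic enhancer binder, at −0.54 (fold 0.690, 0.490 to 0.972, p = 0.0336). Other RNA-binding splicing regulators had 24 of 45 higher, a median of 0.03 and 1 at an unadjusted p under 0.05, Elavl3, a neuronal Hu protein, at 0.76 (p = 0.0106), followed by Tial1 at 0.63 (p = 0.0658) in the authors' deposited edgeR fit. The snRNP core and Sm/LSm proteins had 12 of 26 higher, a median of −0.04 and 1 at an unadjusted p under 0.05, Snrnp70 of the U1 snRNP, at 0.41 (p = 0.0161), with Snrpb2 at −1.06 (p = 0.124) next in the authors' deposited edgeR fit. The remaining spliceosome components had 29 of 55 higher and a median of 0.03, led by Sugp2 at −0.46 (p = 0.0561) and Syf2 at −0.81 (p = 0.0795) in the authors' deposited edgeR fit. Exon junction and nonsense-mediated decay genes, which act on the poison-exon transcripts of SR genes, numbered 6 higher and 9 lower of 15, at a median of −0.07, led by Upf2 at −0.37 and Smg6 at 0.27 per the authors' deposited table. In each of these 5 lists 0 genes passed at an adjusted p under 0.05 in the authors' deposited edgeR fit, where 4 of their 163 measured genes, or 2.45%, had an unadjusted p under 0.05, beside 4.39% of all genes.

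**Figure D5:**
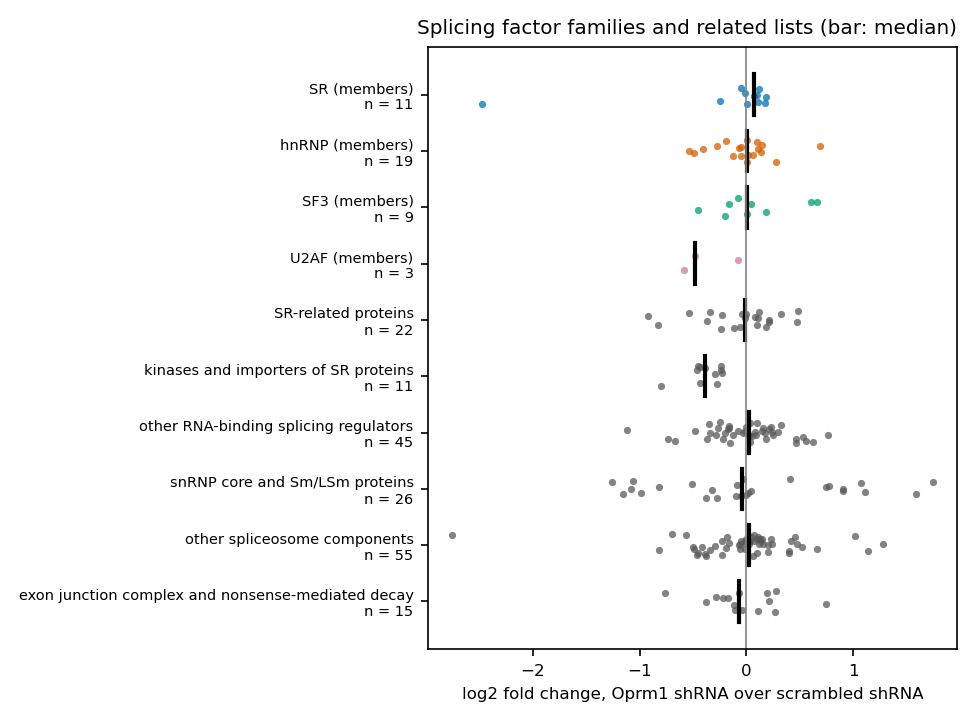
Log2 fold changes from the authors' deposited table of the genes in the 4 families (colours) and in 6 related lists (grey), with the median of each as a black bar. The medians of the U2AF genes, −0.48, and of the kinases and importers of SR proteins, −0.38, lie below 0, and those of the other sets lie between −0.07 and 0.07.

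The promoter windows of these genes, which the rule did not use, had a higher median CpG ratio than the windows of all measured genes. RefSeq windows on the rat assembly GRCr8, from 250 bases before to 50 after a gene's start, were matched by symbol to 39 of the 42 genes (43 windows). The median ratio of observed to expected CpG was 0.964 for the members, against 0.741 for the 12061 windows matched to 10708 symbols of the authors' deposited table and 0.392 for all 33469 windows. The letters GGGCGG, searched on both strands, occurred in 72.1% of the members' windows, 59.4% of those of genes in the table and 33.1% of all windows. The letters CCGGAAG, also on both strands, occurred in 27.9%, 15.4% and 8.75% of the same sets, and the letters TATAAA in 16.3%, 7.06% and 14.2%. The TATAAA share of the members is 7 of 43 windows. Both larger sets include the members, and the sets were not matched for read support (median 110 CPM for the members and 22.2 CPM for all genes). These are descriptions of the windows and say nothing on which proteins bind them.

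For 10 members another gene starts on the opposite strand within 500 bases, so that the starts lie close together, and for 7 of these the neighbour has a row in the authors' deposited table. In 2 of the 7 pairs the neighbour had an unadjusted p under 0.05 while the member did not, beside the 4.39% of all genes given above. The difference within a pair was not tested. The intervals of Srsf11 (0.572 to 1.73-fold) and U2af1l4 (0.309 to 1.44-fold) overlap those of their neighbours, given next, per the authors' deposited table. Lrrc40, a leucine-rich repeat gene that starts 96 bases from Srsf11, had a log2 fold change of −1.07 (fold 0.476, 0.239 to 0.945, p = 0.0339 and adjusted p = 0.9997 by the authors' deposited edgeR fit), against −0.01 for Srsf11. Psenen, a gamma-secretase subunit gene that starts 216 bases from U2af1l4, had 1.42 (fold 2.67, 1.11 to 6.40, p = 0.0281 and adjusted p = 0.9997 by the authors' deposited edgeR fit), against −0.58 for U2af1l4. The intervals of the other 5 neighbours in the authors' deposited table all include 1-fold. Enoph1 beside Hnrnpdl was at 0.27, Plekhj1 beside Sf3a2 at 0.26 and Cog4 beside Sf3b3 at 0.19 on the log2 scale. Gla beside Hnrnph2 was at −0.56 (12.3 CPM, 0.174 to 2.65-fold) and Ccdc157 beside Sf3a1 at −0.97 (11.5 CPM, 0.114 to 2.27-fold). Whether the counting used strand is not given in the sources at hand, and Sf3a1 and Ccdc157 overlap by 41 bases, so reads of overlapping ends cannot be told apart. The windows of the 2 pairs whose neighbour is past the unadjusted 0.05 are shown to let the short shared stretch be read. Each is written 5′ to 3′ on the strand of the splicing factor gene, and capitals mark the bases from the neighbour's start up to the gene's own start (GRCr8, RefSeq).
Srsf11, chr2:249760209-249760508, minus strand: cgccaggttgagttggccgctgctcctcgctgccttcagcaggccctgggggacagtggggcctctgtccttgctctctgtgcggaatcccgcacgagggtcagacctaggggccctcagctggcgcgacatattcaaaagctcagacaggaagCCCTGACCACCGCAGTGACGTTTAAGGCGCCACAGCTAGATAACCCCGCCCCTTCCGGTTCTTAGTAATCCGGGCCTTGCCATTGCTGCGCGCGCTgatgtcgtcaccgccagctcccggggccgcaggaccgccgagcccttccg
U2af1l4, chr1:94943511-94943810, plus strand: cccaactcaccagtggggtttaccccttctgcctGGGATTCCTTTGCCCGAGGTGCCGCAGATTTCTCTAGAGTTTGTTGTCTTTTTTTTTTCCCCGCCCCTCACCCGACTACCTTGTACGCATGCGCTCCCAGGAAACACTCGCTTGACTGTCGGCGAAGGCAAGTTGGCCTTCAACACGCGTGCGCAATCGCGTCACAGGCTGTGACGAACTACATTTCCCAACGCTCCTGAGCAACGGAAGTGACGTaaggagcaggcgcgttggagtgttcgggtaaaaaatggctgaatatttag
The stretch between Srsf11 and Lrrc40 holds the letters of both motifs, on the reverse strand, and that between U2af1l4 and Psenen holds those of the first.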

How the data were processed

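RNA sequencing of 13 labelled MPOA samples was used, of which 5 (Oprm1 shRNA) and 7 (scrambled shRNA) enter the comparison. Per the submitters' processing notes, the tools were edgeR 3.28.0, RSEM, STAR 2.5.3a and bcl2fastq 2.20, and the build was Rnor_6.0. Neither annotation release nor filter, dispersion or covariates could be read from these notes. The authors deposited log2 fold changes and log2 average CPM for 1 comparison. They also deposited the LR, a score with no fixed range, an unadjusted p and an FDR, per the file headers. The headers name neither the method of adjustment nor the genes adjusted over. A Benjamini-Hochberg adjustment redone over the table gave a smallest value of 0.9997 among the members, as deposited. The deposited p-values equal the chi-square tail of the LR with 1 degree of freedom. Because no values per sample were analysed here, the planned count fit was not run and the authors' fit was used as given, which is the case the plan foresaw for such a table.

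From the table, the implied standard error, the approximate 95% interval, medians and counts were computed with Python 3.11.15, numpy 2.4.6, pandas 2.3.3 and scipy 1.17.1. The arithmetic of the implied standard error and of the adjustment was checked on simulated log2 fold changes. Those held no counts and no edgeR fit, so how often the interval covers the true value was not tested. The interval treats the LR as a squared normal value and is poor for genes with few reads. Separate rats are not stated in the labels, so the p-values measure only spread among these samples, which may be technical. The members and lists were chosen with earlier results of these data known. Of the members, 22 were named by rule (in each family the 3 with the most reads, the 2 with the smallest p in each direction, any at an unadjusted p under 0.05, of which there was none, and all U2AF genes), and the other members were named after their values were seen. In the related lists the 2 genes with the smallest p were named. All 11 kinases and importers were named after their values were seen, as were Phf5a, the like rows and the promoter neighbours. No coordinates from Rnor_6.0 are given. The sequences and neighbours come from RefSeq on GRCr8, matched by symbol, and no genome of the authors' build was used.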

Additional observations from a re-analysis of the deposited data

How the results depend on the processing

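The count of 0 members past an adjusted p of 0.05 was also 0 with the adjustment redone over the table, over genes with log2 CPM of at least 0 or at least 4, at an adjusted p under 0.1, and with standard errors below the running median raised to it. Over all genes the same settings, in that order, called 3, 3, 3, 4 and 1. The count of 0 at an unadjusted p under 0.05 was 0 under 0.01, beside 0.916% of all genes at that limit. Under 0.1 the count was 1 (Srsf9), beside 8.00% of all genes. The median log2 fold change of the 42 genes, 0.01, was 0.02 after subtracting the median of all genes and −0.01 as a mean weighted by precision, and for the hnRNP genes that mean was −0.03. These were the only 2 medians whose sign differed, of all members or of a family. The U2AF median, −0.48, became −0.22 as that weighted mean. The SF3 median, 0.01, was 0.03 for members with log2 CPM of at least 4. Summed with their like rows, Hnrnpc was 0.15 against 0.70 alone, Hnrnpr was −0.21 against −0.41, and Hnrnpab changed sign, at −0.0029 against 0.02. Sums with like rows, centring of single genes and the precision of members with log2 CPM of at least 4 were chosen after seeing the data. No paired analysis was possible because the deposited comparison holds no values per sample, though numbers 5, 9 and 10 occur in both groups. For the same reason leaving out each sample and DESeq2 were not run. Depth per sample is unknown, and the fold needed for an unadjusted p of 0.05 was largest for Sf3b6 (226), Srsf9 (7.44), Sf3b5 (2.90) and Srsf10 (2.62).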
